A study of Mus musculus with 24 samples.

Results

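The genes described here are 44 cell cycle and mitosis genes, followed in the gastrocnemius, a calf muscle, and in the heart of dystrophic and control mice. A gene counted as measured where the array's annotation gave at least 1 probe set that named it and no other gene. That held for 43 of the 44 genes, out of 18161 genes measured by this rule. The expression of Ccnb1 was not analysed here, but its promoter window is among those counted below. Where several probe sets named a gene, the one with the highest mean log2 intensity in the tissue stood for it.

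The arrays came from 12 male mice aged 2 months, each of which gave both tissues, so that 24 Affymetrix mouse arrays formed 4 genotypes with 3 arrays per genotype and tissue. WT mice and Cmah KO mice carry the strain label C57BL/6J. Mdx mice, which lack dystrophin and model Duchenne muscular dystrophy, and Cmah KO mdx mice carry the strain label C57BL6/10J. Cmah makes the sialic acid Neu5Gc, which the Cmah KO and Cmah KO mdx mice lack, as people do. Every comparison across dystrophin loss therefore also crosses the strain labels, and dystrophin loss and strain cannot be told apart. The labels do not say whether animals of a group were littermates.

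Dividing cells first load the MCM helicase onto DNA and copy it with the polymerase clamp PCNA, under the E2F transcription factors. They then condense and attach their chromosomes through centromeres and kinetochores, under cyclins A and B with CDK1, and separate them after the spindle checkpoint is satisfied. Mature muscle fibres and most adult heart muscle cells are out of the cycle, whereas satellite cells, the stem cells of skeletal muscle, and infiltrating immune cells divide when fibres are damaged and rebuilt. In whole tissue, fewer dividing cells and less of these RNAs per cell cannot be told apart.

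Genes of S phase entry are typically switched on through E2F sites in their promoters, and genes of G2 and mitosis through a CHR element and CCAAT boxes. RefSeq promoter windows of mouse build GRCm38.p6, which run from 250 bases before to 50 bases after the start site, were at hand for 37 of the 44 genes. Of the 6 genes that later passed the test in gastrocnemius, 5 have a window, and they are shown here as the control regions of the genes that changed. Ccna2 has none. Capitals mark the CHR element TTTGAA, the CCAAT box (CCAAT) and E2F-type letters, which were TTCCCGC and also TTGGCGC and also TTCGCGC and also TTGCCGC, each searched on both strands and none overlapping another in these windows. The printed stretches end 5 bases past the start site and lie at chr10:69352908-69353127 on the minus strand for Cdk1, and on the plus strand at chr7:80294236-80294455 for Prc1, chr19:6084882-6085101 for Cdca5, chr4:136172059-136172278 for E2f2 and chr11:117849022-117849241 for Birc5.
Cdk1: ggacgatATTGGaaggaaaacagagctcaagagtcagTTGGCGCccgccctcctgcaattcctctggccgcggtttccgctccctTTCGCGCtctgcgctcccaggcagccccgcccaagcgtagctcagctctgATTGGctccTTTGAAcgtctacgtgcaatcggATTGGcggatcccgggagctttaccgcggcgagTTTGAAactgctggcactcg
Prc1: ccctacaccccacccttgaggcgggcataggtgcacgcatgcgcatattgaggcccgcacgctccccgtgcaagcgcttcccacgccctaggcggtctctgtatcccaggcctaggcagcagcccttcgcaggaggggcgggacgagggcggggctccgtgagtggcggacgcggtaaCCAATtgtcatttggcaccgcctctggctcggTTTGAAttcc
Cdca5: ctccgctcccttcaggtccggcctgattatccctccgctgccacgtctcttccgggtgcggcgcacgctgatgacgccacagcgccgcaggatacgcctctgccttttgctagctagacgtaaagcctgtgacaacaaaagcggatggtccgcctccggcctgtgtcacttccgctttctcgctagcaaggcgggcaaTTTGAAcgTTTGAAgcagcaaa
E2f2: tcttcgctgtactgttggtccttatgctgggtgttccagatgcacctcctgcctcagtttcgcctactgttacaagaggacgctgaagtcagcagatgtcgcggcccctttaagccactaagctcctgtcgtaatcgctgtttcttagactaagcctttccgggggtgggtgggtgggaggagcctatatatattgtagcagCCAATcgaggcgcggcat
Birc5: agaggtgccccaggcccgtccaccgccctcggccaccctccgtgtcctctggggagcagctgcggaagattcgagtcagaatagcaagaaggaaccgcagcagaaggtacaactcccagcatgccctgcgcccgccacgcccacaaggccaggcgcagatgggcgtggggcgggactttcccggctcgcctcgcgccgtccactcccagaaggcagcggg
Cdk1 held all 3 kinds of element, with 2 CHR elements, 3 CCAAT boxes and 2 E2F-type matches. Prc1 held 1 CHR element that crosses the start site and 1 CCAAT box, Cdca5 held 2 CHR elements, and E2f2 held 1 CCAAT box. Cdca5 and E2f2 each had a further E2F-type match downstream of the printed bases, starting 14 and 41 bases after the start site. Birc5 held none of these letters in its window.

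Over the 37 windows, the CHR element was present in 20 (54.1%), against 18.1% of the 27025 promoters of the table. The CCAAT box was present in 29 (78.4%), against 37.9%, and E2F-type letters in 12 (32.4%), against 9.69%. CHR element and CCAAT box occurred together in 18 (48.6%), against 7.12%. The 3 windows with all 3 elements were those of Cdk1, Mki67 and Hmmr. The helicase genes Mcm3, Mcm5, Mcm6 and Mcm7 held E2F-type letters and CCAAT boxes without a CHR element, while Mcm2 held a CHR element and a CCAAT box without E2F-type letters. A match is a description of letters and does not show that a factor binds there.

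Median intensities of the arrays, which are deposited as linear brightness values, lay between 41.87 and 50.68. The arrays differ in ways that the genotypes do not explain. Dmd, the mutated gene of mdx mice, was lower in dystrophin-deficient gastrocnemius by its brightest probe set (log2 difference -1.88, limma adjusted p = 0.00474), with all 6 arrays between 7.54 and 8.59 against 9.99 to 10.26 in the other 6. For Cmah, the brightest probe set did not separate the labels, and it is not given which of its exons the probe sets read. In heart, Cmah KO replicate 3 and Cmah KO mdx replicate 2 stood apart: their Gapdh 3' minus 5' log2 differences, a sign of RNA quality, were 4.292 and 4.426 against 0.44 to 1.598 in the other heart arrays, and their mean correlations with the other heart arrays were 0.463 and 0.7487. Heart results are given with and without these 2 arrays. In gastrocnemius, WT replicate 1 carried much more lymphoid RNA than the others, with a summed B cell marker intensity of 3150 against 61.9 and 38.5 in the other two WT arrays; Cmah KO replicate 3 had 726.

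In gastrocnemius the cell cycle genes were mostly higher where dystrophin was missing. Over the mean of both dystrophin comparisons, mdx against WT and Cmah KO mdx against Cmah KO, with 6 arrays against 6, 39 of 43 genes were higher and 4 lower, against 48.8% of all 29518 probe sets tested being higher. Their median log2 difference was 1.09, and that of all genes was -0.02. The genes were chosen with earlier results of these data known, so such counts beside all probe sets are a description. In all, 6 genes passed an adjusted p below 0.05 by limma with Benjamini-Hochberg adjustment over all probe sets tested, all of them higher, against 0.725% of all probe sets. They were Ccna2 at 5.35-fold, Birc5 at 5.13-fold, Prc1 at 5.1-fold, E2f2 at 5.06-fold, Cdk1 at 3.85-fold and Cdca5, which was dim in every dystrophin-positive array. Cdca5, Bub1 and Nuf2 entered the test only through dystrophin-deficient arrays. A probe set needed 3 of 12 arrays above a floor of 4.66, and none of their dystrophin-positive arrays reached it. Such a gene had to differ. These 3 genes therefore add no support to any count of genes higher with dystrophin loss in gastrocnemius, here or below. With no filter at all, Cdca5 had a limma adjusted p of 0.0154. No gene passed as lower. At an unadjusted p below 0.05, 27 of 43 genes were higher, against 6.82% of all probe sets, and none was lower, against 3.3%. For 4 genes, Cdca5, E2f2, Birc5 and Cdk1, every dystrophin-deficient array was above every other array, against 1.2% of all probe sets.

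**Figure D1:**
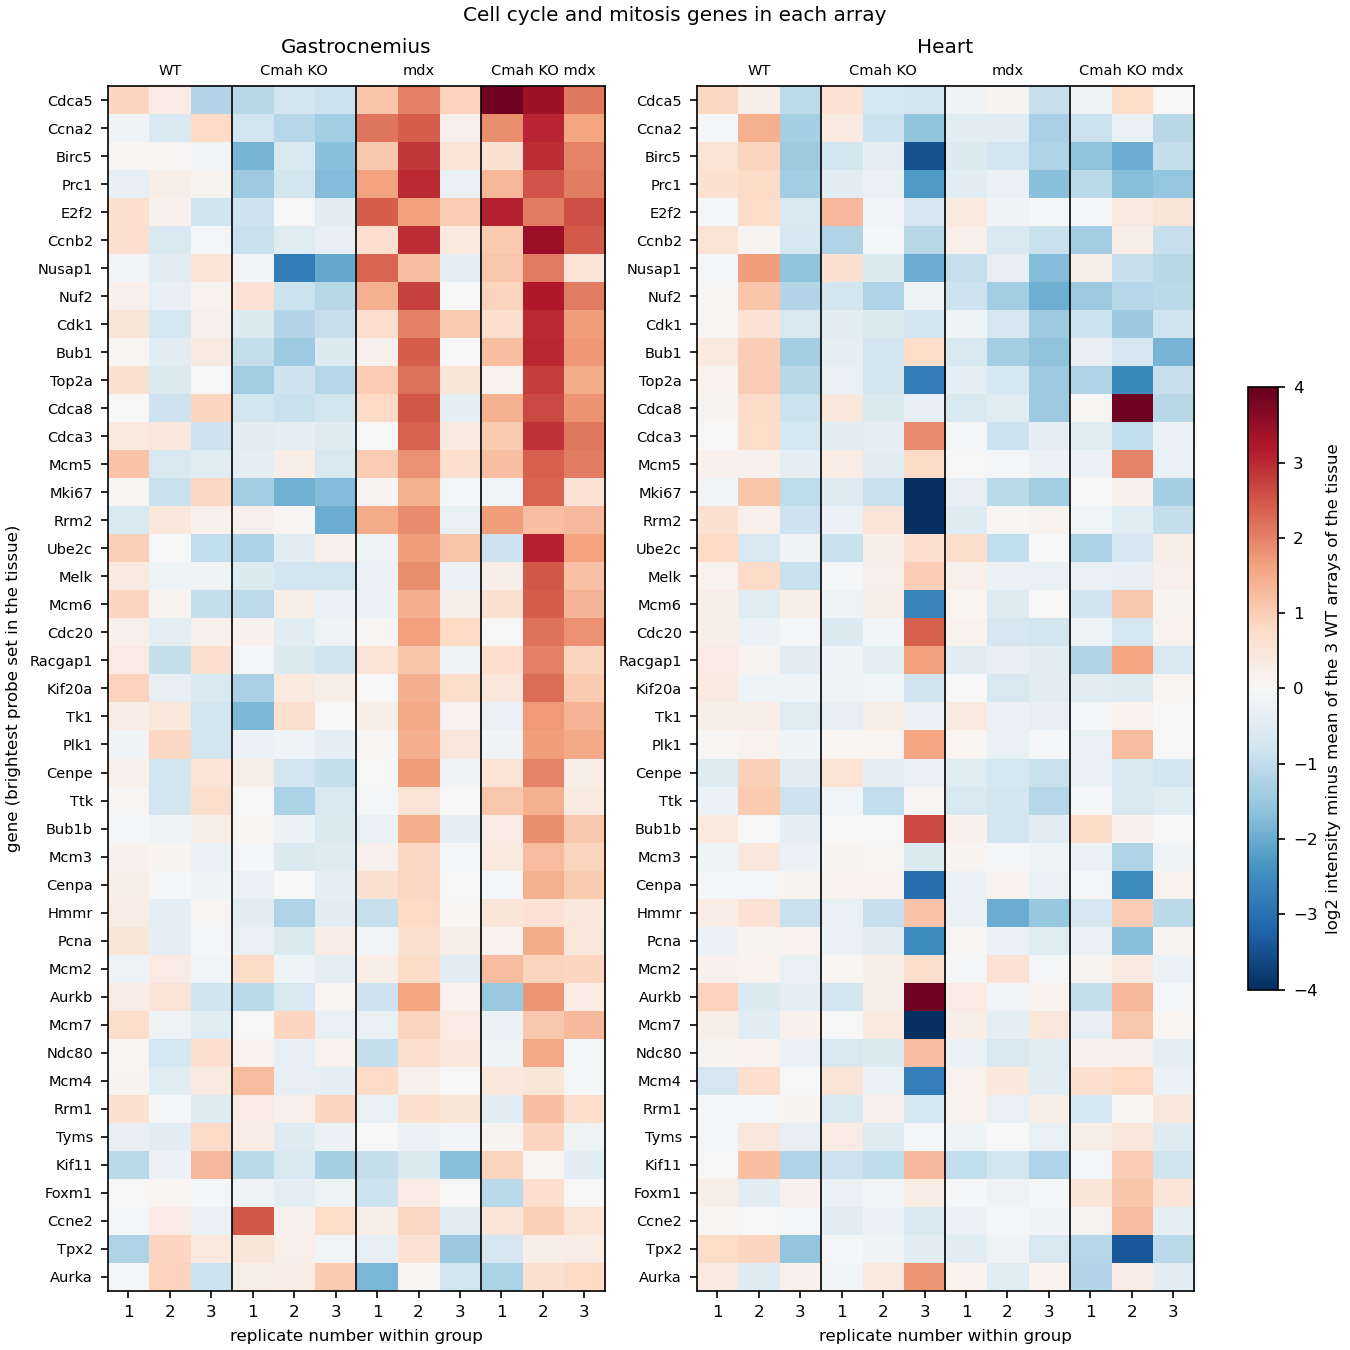
Log2 intensity of each of the 43 genes in each array, as the difference from the mean of the 3 WT arrays of the same tissue; columns are arrays by genotype and replicate, rows are ordered by the pooled dystrophin difference in gastrocnemius, and colours saturate at 4 either way. In gastrocnemius the red block covers most rows of mdx replicate 2 and of Cmah KO mdx replicates 2 and 3, while in heart the strong colours lie mostly in Cmah KO replicate 3 and Cmah KO mdx replicate 2, the arrays that stood apart.

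Among the cyclins, kinases and their transcription factors, 5 of 7 measured genes were higher in the pooled comparison, 3 of them past the threshold, with a median log2 difference of 1.94. E2f2, an activating transcription factor at the entry to S phase, had log2 intensities of 6.34, 5.89 and 4.91 in WT and 4.89, 5.70 and 5.27 in Cmah KO gastrocnemius. It had 8.13, 7.35 and 6.71 in mdx and 8.78, 7.79 and 8.27 in Cmah KO mdx. All 6 dystrophin-deficient arrays were above the other 6. Between the groups the log2 difference was 2.34 ± 0.32 (SE, n = 6 against 6), with a limma adjusted p of 0.00898. A second E2f2 probe set differed by 1.81 with an adjusted p of 0.0634.

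Cdk1 encodes the kinase that drives entry into mitosis. Its values were 6.58, 5.38 and 6.30 in WT, 5.54, 4.93 and 5.18 in Cmah KO, 6.77, 8.09 and 7.14 in mdx and 6.73, 9.08 and 7.76 in Cmah KO mdx. The groups with and without dystrophin did not overlap, although the lowest Cmah KO mdx array was only slightly above the highest WT array. Its log2 difference was 1.94 ± 0.40 (SE, limma adjusted p = 0.0471). Ccna2, cyclin A2, is a partner of CDK1 and CDK2 in S phase and G2. It was at 6.14, 5.70 and 7.11 in WT, 5.54, 5.19 and 4.94 in Cmah KO, 8.45, 8.74 and 6.53 in mdx and 8.17, 9.37 and 7.89 in Cmah KO mdx. WT replicate 3 was above mdx replicate 3, and otherwise the arrays separated. It differed by a log2 value of 2.42 ± 0.42 (SE, limma adjusted p = 0.0252), and a second Ccna2 probe set differed by 1.62 with an adjusted p of 0.143.

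Ccnb2, cyclin B2, the mitotic cyclin partner of CDK1, did not pass. Its values were 5.08, 3.80 and 4.35 in WT, 3.53, 3.94 and 4.07 in Cmah KO, 5.07, 7.36 and 4.80 in mdx and 5.45, 7.82 and 6.86 in Cmah KO mdx. WT replicate 1 was at the level of mdx replicates 1 and 3. This gave a log2 difference of 2.10 ± 0.49 (SE, limma adjusted p = 0.0847). The cyclin Ccne2 had the smallest value of this group at -0.11, and Foxm1, a transcription factor of G2 and mitosis genes, was at -0.05; neither passed. A second tested Foxm1 probe set differed by 0.21.

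In the genes for DNA replication and nucleotide supply all 11 were higher in the pooled comparison, but none passed the threshold, and the median log2 difference of 0.57 was the smallest of the 6 role groups. Pcna was at 10.1, 9.23 and 9.53 in WT, 9.31, 9.06 and 9.92 in Cmah KO, 9.50, 10.22 and 9.89 in mdx and 9.77, 11.11 and 10.06 in Cmah KO mdx. These ranges overlapped, and the log2 difference was 0.57 ± 0.28 (SE, limma adjusted p = 0.573). Mcm5, a helicase subunit, had the largest difference of the group, 1.65 ± 0.36 with an adjusted p of 0.066. Rrm1, a ribonucleotide reductase subunit, and Tyms, thymidylate synthase, both had the smallest, 0.15.

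Of the 7 chromosome, centromere and kinetochore genes, all were higher, with a median log2 difference of 1.55, and 1 passed. Cdca5 encodes sororin, which keeps sister chromatids together until anaphase. It was at 4.64, 4.09 and 2.59 in WT, 2.65, 2.99 and 2.92 in Cmah KO, 4.87, 5.77 and 4.69 in mdx and 7.62, 7.15 and 5.89 in Cmah KO mdx. The lowest mdx array was barely above the highest WT array, and all Cmah KO mdx arrays were above all mdx arrays. The pooled log2 difference was 2.69 ± 0.39 (SE, limma adjusted p = 0.0106). The dystrophin-positive group means lay below 4.66, the 40th percentile of the log2 values of this tissue, so the size of this difference rests on dim signals. Its second probe set was too dim to be tested and differed by 0.61.

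Mki67, the gene of the proliferation marker Ki-67, did not pass. It was at 6.95, 6.01 and 7.74 in WT, 5.50, 4.99 and 5.17 in Cmah KO, 7.02, 8.31 and 6.83 in mdx and 6.80, 9.24 and 7.48 in Cmah KO mdx. WT replicate 3 was above 4 of the 6 dystrophin-deficient arrays. The log2 difference was 1.55 ± 0.44 (SE, limma adjusted p = 0.165). Top2a, the topoisomerase that untangles replicated chromosomes, was at 6.12, 4.93 and 5.47 in WT, 4.10, 4.67 and 4.35 in Cmah KO, 6.51, 7.70 and 5.97 in mdx and 5.64, 8.27 and 6.98 in Cmah KO mdx. WT replicate 1 was above mdx replicate 3 and Cmah KO mdx replicate 1. Between the groups the log2 difference was 1.91 ± 0.44 (SE, limma adjusted p = 0.0764).

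Nuf2, a kinetochore subunit that binds microtubules, was at 4.07, 3.56 and 4.02 in WT, 4.46, 3.03 and 2.77 in Cmah KO, 5.30, 6.62 and 3.89 in mdx and 4.77, 7.08 and 5.95 in Cmah KO mdx. The mdx arrays overlapped the WT arrays. Its log2 difference was 1.95 ± 0.51 (SE, limma adjusted p = 0.121). Its partner Ndc80 had the smallest difference of the group, 0.25.

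In the spindle checkpoint and mitotic kinase group, 7 of 8 genes were higher, 1 past the threshold, with a median log2 difference of 0.92. Birc5 encodes survivin, a subunit of the chromosomal passenger complex. It was at 6.77, 6.75 and 6.60 in WT, 4.84, 6.10 and 5.03 in Cmah KO, 7.78, 9.54 and 7.25 in mdx and 7.33, 9.65 and 8.70 in Cmah KO mdx. Every dystrophin-deficient array was above every other array, and the 3 WT arrays lay close together. It differed by a log2 value of 2.36 ± 0.46 (SE, limma adjusted p = 0.0395). Bub1, a checkpoint kinase, was at 4.19, 3.71 and 4.47 in WT, 3.16, 2.66 and 3.57 in Cmah KO, 4.29, 6.55 and 4.14 in mdx and 5.32, 7.14 and 5.84 in Cmah KO mdx. Only replicate 2 of mdx stood above WT, whereas all Cmah KO mdx arrays did. This gave a log2 difference of 1.92 ± 0.44 (SE, limma adjusted p = 0.0791). Cdca8, borealin of the same complex as survivin, was at 1.86 ± 0.45 with an adjusted p of 0.0979; of its less bright probe sets 1 passed, at 1.70 ± 0.35 (adjusted p = 0.0491), and 1 did not, at 0.64 ± 0.33 (adjusted p = 0.589). Aurka, aurora kinase A, had the lowest value of all 43 genes, -0.66 ± 0.45, with an adjusted p of 0.766.

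Of the 7 genes for the spindle, motors and cytokinesis, 6 were higher, 1 past the threshold, with a median log2 difference of 1.09. Prc1 bundles the microtubules of the central spindle. It was at 6.27, 6.83 and 6.70 in WT, 5.15, 5.87 and 4.88 in Cmah KO, 8.20, 9.58 and 6.31 in mdx and 7.93, 9.12 and 8.64 in Cmah KO mdx. The mdx replicate 3 lay within the WT values and the other dystrophin-deficient arrays above them. The pooled log2 difference was 2.35 ± 0.47 (SE, limma adjusted p = 0.0435), and a second probe set gave 2.12 with an adjusted p of 0.0898. Nusap1, a microtubule protein of the spindle, was at 5.66, 5.37 and 6.30 in WT, 5.66, 3.00 and 3.74 in Cmah KO, 8.10, 6.98 and 5.40 in mdx and 6.87, 7.85 and 6.31 in Cmah KO mdx. Its arrays overlapped through mdx replicate 3, and the log2 difference of 1.96 ± 0.53 had a limma adjusted p of 0.143. A second Nusap1 probe set differed by 0.02. Tpx2, which activates aurora kinase A on the spindle, was the lowest of the group at -0.31, but a second tested Tpx2 probe set differed by 0.65.

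The 3 genes of mitotic exit and ubiquitin ligase function were all higher, none past the threshold. Cdca3 had the largest log2 difference, 1.68 ± 0.44 with a limma adjusted p of 0.126, and Cdc20, an activator of the anaphase-promoting complex, the smallest, 1.14 ± 0.39 with an adjusted p of 0.267. Other Cdc20 probe sets, less bright, differed by 1.96 ± 0.34 (limma adjusted p = 0.0275), which passed, and by 0.88 ± 0.31 (adjusted p = 0.289), so the probe sets of this gene disagree.

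**Figure D2:**
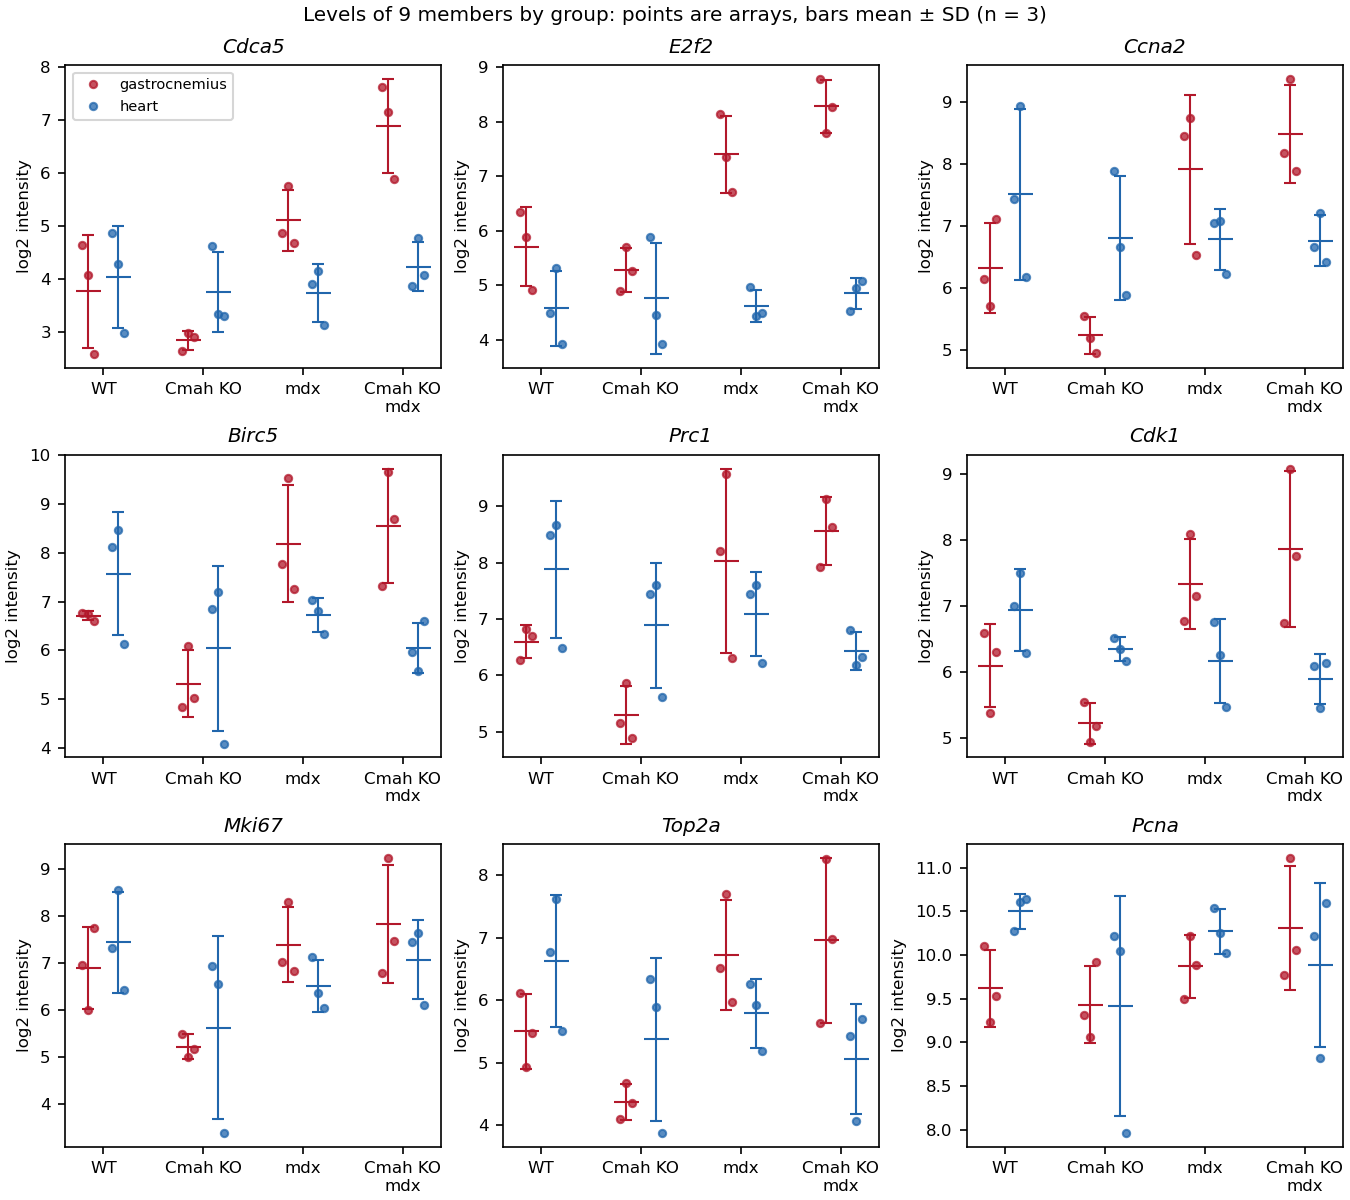
Log2 intensity of 9 genes by genotype in gastrocnemius (red) and heart (blue); points are arrays, wide ticks the mean and bars the SD of 3 arrays. For E2f2, Cdca5, Birc5 and Cdk1 all 6 gastrocnemius arrays of mdx and Cmah KO mdx lie above the 6 of WT and Cmah KO, while in heart the 6 dystrophin-deficient arrays overlap the other 6 for each gene.

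The 2 dystrophin comparisons were also read one by one. In mdx against WT gastrocnemius no gene of the group passed, against 0.0169% of all probe sets; 37 of 43 were higher, against 52% of all probe sets, with a median log2 difference of 0.49. At an unadjusted p below 0.05, 6 genes were higher, against 2.38% of all: E2f2, Ccna2, Cdca5, Birc5, Cdk1 and Mcm5, with E2f2 the largest at 1.68 ± 0.46 (SE, limma adjusted p = 0.663). In 4 genes all mdx arrays were above all WT arrays, against 3.54% of all probe sets.

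In Cmah KO mdx against Cmah KO gastrocnemius 2 genes passed and were higher, against 0.0915% of all probe sets. E2f2 rose by 2.99 ± 0.46 on the log2 scale (SE, n = 3 against 3, limma adjusted p = 0.0386). Cdca5 differed by 4.03 ± 0.55 (SE, limma adjusted p = 0.0297, or 0.037 with no filter), with all 3 Cmah KO arrays below the floor. Of 43 genes, 40 were higher, against 48.3% of all probe sets, with a median log2 difference of 1.47, and 30 had an unadjusted p below 0.05, against 5.36%. In 28 genes the 3 Cmah KO mdx arrays were above all 3 Cmah KO arrays, against 7.27% of all probe sets. Birc5, Ccna2 and Prc1 had differences of 3.24, 3.25 and 3.27, with adjusted p of 0.0934, 0.0673 and 0.0937. The calls of Cdca5 and E2f2 here were lost without any 1 of the 3 Cmah KO arrays, or without Cmah KO mdx replicate 2 or 3; without Cmah KO mdx replicate 1, 3 genes passed, among them Cdca5 but not E2f2.

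The difference between these 2 comparisons was tested as an interaction. No gene passed, and no probe set of the array did (0%); 40 of 43 genes had a positive interaction, against 48.1% of all probe sets, with a median of 0.98. By unadjusted p, Cdca5, Kif11, Mki67, Bub1 and Ttk were below 0.05, against 0.606% of all probe sets in this direction, with Cdca5 at 2.69 and Kif11, a mitotic kinesin, at 2.24 (adjusted p = 1 for all). A second tested Kif11 probe set differed by 0.55 in mdx against WT and by 0.66 in Cmah KO mdx against Cmah KO. Another Kif11 probe set, too dim to be tested, differed by 0.02 and 1.25. The second Cdca5 probe set, also too dim, differed by 0.45 and 0.77. The effect of the Cmah KO was compared on each side. These comparisons share their groups with the ones above. Cmah KO arrays were lower than WT for 36 of 43 genes, against 43.3% of all probe sets, with a median log2 difference of -0.45, and Cmah KO mdx arrays were higher than mdx for 41 of 43, against 53.9%, with a median of 0.52. Of the neutrophil markers, all 4 were also lower in Cmah KO than in WT, with a median of -2.42 and 2 at an unadjusted p below 0.05, and their interaction median was 2.55. Their summed intensity was 3730, 1840 and 113 in WT, 82.3 to 268 in Cmah KO, 391 to 963 in mdx and 340 to 943 in Cmah KO mdx. Elane, a defining marker, was below the floor in every group mean, and Mpo in all but that of WT. The WT arrays, in the same order, had means over the 43 genes of 6.23, 5.90 and 6.01. Other marker lists moved both ways from WT to Cmah KO by mean log2. Lower ones included T and natural killer cell (6 to 5.42), B cell (5.89 to 5.21), common leukocyte (8.94 to 8.59) and regenerating fibre (7.52 to 7.08). Higher ones included macrophage (7.89 to 7.95), satellite cell (7.98 to 8.01) and adipocyte (11.27 to 11.5). The part of any of these cells in the comparison was not tested. No cell cycle gene passed in either comparison across the Cmah KO, against 0% and 0.00339% of all probe sets. The arrays of Cmah KO lay below all WT arrays for 9 genes, against 1.45%, and those of Cmah KO mdx above all mdx arrays for 3, against 2.28%. By unadjusted p, Mki67 at -1.68 and Nusap1 at -1.64 were lower in Cmah KO than in WT, against 0.623% of all probe sets, and Cdca5 at 1.77 and Kif11 at 1.23 were higher in Cmah KO mdx than in mdx, against 0.518%.

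**Figure D3:**
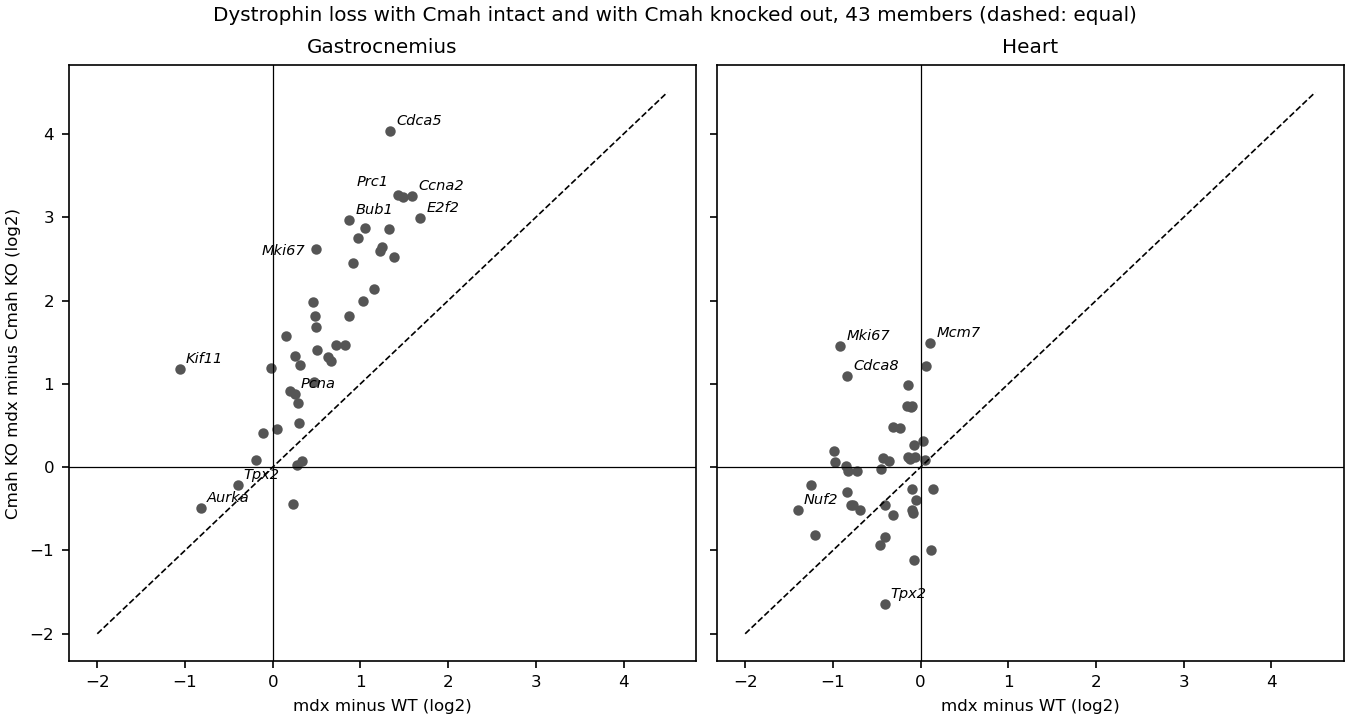
Log2 difference of each of the 43 genes in Cmah KO mdx against Cmah KO (vertical) and in mdx against WT (horizontal), in gastrocnemius and in heart; the dashed line marks equal differences. In gastrocnemius 40 of 43 points lie above the line. In heart the points scatter around 0 on the vertical axis, while 37 of 43 lie below 0 on the horizontal axis.

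Within each dystrophin-deficient group, a single animal was the highest in most of these genes. The mean log2 intensity over the 43 genes was 6.34, 7.44 and 6.12 in the mdx gastrocnemius arrays and 6.57, 7.93 and 7.15 in the Cmah KO mdx arrays, against 6.23, 5.90 and 6.01 in WT and 5.69, 5.56 and 5.51 in Cmah KO. The mdx replicate 2 was the highest of its group in 39 of 43 genes, against 33.6% of all probe sets tested, and Cmah KO mdx replicate 2 in 35 of 43, against 32.7%. Without mdx replicate 2 the pooled median was 0.87 and 2 genes, Cdca5 (adjusted p = 0.038) and E2f2 (0.0317), passed; without Cmah KO mdx replicate 2 it was 0.85, and the same genes passed, with limma adjusted p of 0.0415 and 0.0244. Without WT replicate 1, the array with lymphoid RNA, the pooled median was 1.17 and 5 genes passed; Birc5 and Prc1 did not, with adjusted p of 0.0546 and 0.0672. The count was 2 or 3 without any 1 of the other WT or Cmah KO arrays, mdx replicate 1 or Cmah KO mdx replicate 3, and 10 without Cmah KO mdx replicate 1. In heart, the animal of mdx replicate 2 gave heart replicate 3, and that of Cmah KO mdx replicate 2 also gave heart replicate 3, and these hearts had means of 5.62, the lowest of the 12 hearts and 5.82; the other 10 hearts ranged from 5.69 to 6.64.

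Markers of some other cell types were also higher in gastrocnemius where dystrophin was missing. The 4 regenerating fibre genes all rose in the pooled comparison, led by the embryonic and neonatal myosins Myh3 at 3.70 ± 0.28 (SE, limma adjusted p = 0.000372) and Myh8 at 4.35 ± 0.37 (adjusted p = 0.000585). Their summed intensity was 996 to 1500 in WT and 986 to 1640 in Cmah KO, against 5320 to 10000 in mdx and 5350 to 11600 in Cmah KO mdx. Of 9 macrophage and monocyte genes all were higher, with a median of 1.39, and Fcgr1 passed at 2.73 ± 0.56 (adjusted p = 0.0471). Their summed intensity was 6250 to 13100 in WT, 6100 to 8490 in Cmah KO, 13800 to 19700 in mdx and 12600 to 25700 in Cmah KO mdx. All 7 satellite cell and myoblast genes were higher, with a median of 0.82, and Mymk, the myoblast fusion gene, passed at 3.54 ± 0.40 (adjusted p = 0.00466). The 4 common leukocyte genes had a median of 1.34 with none past the threshold. By summed intensity, the highest mdx array was replicate 2 in each of these lists. The highest Cmah KO mdx array was replicate 2 for macrophage and common leukocyte genes, and replicate 3 for regenerating fibre and satellite cell genes. Mature fibre genes had a median of -0.01, endothelial genes -0.05, fibroblast genes 0.27, T and natural killer cell genes -0.72 and B cell genes -1.12, with none past the threshold. The part of these cells in the cell cycle differences was not tested.

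Other genes of the pathway, 59 in a list kept apart from the 44, of which 58 were measured, gave 4 past the threshold in the pooled gastrocnemius comparison, all higher. They were E2f8, a repressive E2F factor, at 2.17 ± 0.30 (SE, limma adjusted p = 0.00898), Ect2, an exchange factor of cytokinesis, at 1.87 ± 0.36 (0.0397), Cdk6, a G1 kinase, at 1.79 ± 0.30 (0.022), and Cdkn1a, the CDK inhibitor p21, at 1.21 ± 0.20 (0.0226). The 4 compare with 0.725% of all probe sets called higher. In all, 44 of 58 were higher, against 48.8% of all probe sets, with a median of 0.69. The 14 further mitosis genes were all higher, with a median of 1.22, while the 3 measured genes of the p53 arm were between -0.27 and -0.01. CDK inhibitors had a median of 0.51, D and E cyclins and their kinases 0.64, origin licensing genes 0.71, CDK phosphatases and brakes 0.29, and pocket proteins and E2F factors 0.32, with 4 of 10 lower.

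In heart no gene of the group passed in any of the 6 comparisons, and no probe set of the array did (0%). With 39 of 43 genes bright enough to be tested, the pooled dystrophin comparison had 14 genes higher and 29 lower, against 38.4% of all probe sets being lower, with a median log2 difference of -0.24. At an unadjusted p below 0.05, 1 gene, Nuf2, was lower, against 0.489% of all probe sets. Nuf2 entered the heart test only through dystrophin-positive arrays, WT replicates 1 and 2 and Cmah KO replicate 3, so its values are a description. Without the 2 arrays that stood apart, 7 genes were higher and 36 lower, against 49.7% of all probe sets being lower, with a median of -0.19, and 1 gene, Racgap1, had an unadjusted p below 0.05 and was lower, against 1.39% of all probe sets. For Racgap1, the 1 dystrophin-deficient heart above the floor was Cmah KO mdx replicate 2, which is left out here. Its values are therefore a description too. In mdx against WT heart, where neither array enters the means, 6 were higher and 37 lower, against 47.7% of all probe sets being lower, with a median of -0.32, and Nuf2 at -1.40 was the 1 gene lower at an unadjusted p below 0.05, against 0.207%. Means over the 43 genes were 6.43, 6.64 and 5.69 in the WT hearts and 6.1, 5.81 and 5.62 in the mdx hearts. WT replicate 3 lay within the mdx values. It was the lowest WT heart in 31 of 43 genes, against 29.4% of all probe sets tested. Without 1 array at a time the median ranged from -0.51 to -0.18. In Cmah KO mdx against Cmah KO heart, 21 were higher and 22 lower with all arrays, against 60.7% of all probe sets being higher, and 12 and 31 without the 2, against 51.9% being lower. Cmah KO hearts were lower than WT hearts for 30 of 43 genes, against 68.5% of all probe sets, or 29 without the 2 arrays, against 53%. Cmah KO mdx hearts were higher than mdx hearts for 25, against 41%, or 23 without the 2, against 43.2%. The interaction was positive for 31, against 59.3%, with a median of 0.38, or for 25 without the 2, against 46.1%, with a median of 0.08.

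The 4 genes with the largest pooled heart differences were Tpx2, Bub1, Nuf2 and Mcm7. Tpx2 was at 7.32, 7.47 and 5.01 in WT, 6.53, 6.45 and 6.17 in Cmah KO, 6.15, 6.46 and 5.97 in mdx and 5.47, 3.22 and 5.53 in Cmah KO mdx; the value of 3.22 came from an array that stood apart. The log2 difference was -1.02 ± 0.51 with that array and -0.70 ± 0.45 without the 2. Bub1 was at 5.54, 6.12 and 3.77 in WT, 4.76, 4.37 and 5.87 in Cmah KO, 4.52, 3.77 and 3.54 in mdx and 4.81, 4.47 and 3.27 in Cmah KO mdx. Its groups overlapped, and the difference was -1.01 ± 0.47, or -0.86 ± 0.49 without the 2 arrays. Nuf2 was at 5.26, 6.32 and 4.04 in WT, 4.47, 3.99 and 5.04 in Cmah KO, 4.37, 3.81 and 3.26 in mdx and 3.76, 4.07 and 4.12 in Cmah KO mdx. The difference was -0.96 ± 0.40, or -0.84 ± 0.42 without the 2. Mcm7, a helicase subunit, was at 8.48, 7.83 and 8.40 in WT, 8.21, 8.63 and 4.20 in Cmah KO, 8.47, 7.89 and 8.69 in mdx and 7.91, 9.31 and 8.32 in Cmah KO mdx. The value of 4.20 is that of the other array that stood apart, and the difference of 0.80 ± 0.65 became -0.10 ± 0.23 without the 2. The limma adjusted p of these 4 genes was 0.999 with all arrays and 1 without the 2.

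For the standard markers the 6 dystrophin-deficient hearts overlapped the other 6. Mki67 was at 7.33, 8.55 and 6.42 in WT, 6.93, 6.56 and 3.38 in Cmah KO, 7.12, 6.37 and 6.04 in mdx and 7.46, 7.64 and 6.11 in Cmah KO mdx, with a pooled difference of 0.26 ± 0.62, or -0.44 ± 0.45 without the 2 arrays. Cdk1 was at 7.00, 7.50 and 6.28 in WT, 6.51, 6.34 and 6.16 in Cmah KO, 6.75, 6.25 and 5.47 in mdx and 6.08, 5.45 and 6.13 in Cmah KO mdx, with a difference of -0.61 ± 0.33, or -0.55 ± 0.31 without the 2. The 12 hearts overlapped for the other two as well. Top2a was at 6.77, 7.62 and 5.51 in WT, 6.34, 5.89 and 3.87 in Cmah KO, 6.26, 5.92 and 5.19 in mdx and 5.43, 4.06 and 5.70 in Cmah KO mdx, with a difference of -0.57 ± 0.52, or -0.69 ± 0.40 without the 2. Pcna was at 10.27, 10.61 and 10.64 in WT, 10.22, 10.04 and 7.96 in Cmah KO, 10.54, 10.25 and 10.02 in mdx and 10.22, 8.82 and 10.60 in Cmah KO mdx, with a difference of 0.12 ± 0.44, or 0.02 ± 0.18 without the 2. The limma adjusted p of these 4 genes was 0.999 with all arrays.

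Whether dystrophin loss differed between the tissues was tested across all 24 arrays with the animal as a random block. Of the 43 genes 7 passed, all with a lower difference in heart, against 0.428% of all 32266 probe sets in this direction. They were Prc1 at -2.97 ± 0.64, Bub1 at -2.93 ± 0.62, Nuf2 at -2.91 ± 0.62, Ccna2 at -2.81 ± 0.59, Cdca5 at -2.60 ± 0.55, Cdk1 at -2.55 ± 0.48 and E2f2 at -2.27 ± 0.49, with limma adjusted p from 0.0131 for Cdk1 to 0.0356 for E2f2. Bub1 and Nuf2 passed in neither tissue alone, and they and Cdca5 were dim in dystrophin-positive gastrocnemius, as given above. For Cdca5 and Nuf2, only dystrophin-deficient gastrocnemius and dystrophin-positive heart arrays were above the floor of their tissue. These are the arrays that make the difference lower in heart. Bub1 came close to this, with 1 dystrophin-deficient heart just above the floor, at 4.81 against 4.78. Bub1, Cdca5 and Nuf2 therefore add no support to the counts in this paragraph. Of 43 genes 37 had the lower difference in heart, against 42.1% of all probe sets, with a median of -1.29 against 0.14 over all genes, and 24 had an unadjusted p below 0.05, against 4.4%. Without the 2 heart arrays, 16 genes passed, all in this direction, against 2.4% of all probe sets; 40 of 43 were lower, against 47.8%, and the median was -1.36. Cdca5 was too dim in heart to be tested there alone. Without 1 array at a time the count ranged from 1 to 10, and it was 1 without gastrocnemius WT replicate 2, Cmah KO replicate 3, mdx replicate 2 or Cmah KO mdx replicate 2, and without heart WT replicate 1 or 2, mdx replicate 3 or Cmah KO mdx replicate 3. Aurka at 0.06, Foxm1 at 0.35, Ccne2 at 0.40, Mcm4 at 0.43, Mcm7 at 0.39 and Rrm1 at 0.02 were the 6 genes with the other sign, with adjusted p of 0.919 or above; without the 2 arrays Mcm4, Mcm7 and Rrm1 were at -0.12, -0.38 and -0.12. 

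Between WT heart and WT gastrocnemius, 2 of 43 genes passed, against 6.36% of all probe sets. The genes thus passed no more often than probe sets as a whole, here or without the 2 heart arrays. Cenpa, the histone that marks centromeres, was at 9.32, 9.30 and 9.47 in WT heart and 6.78, 6.52 and 6.39 in WT gastrocnemius. The ranges did not overlap, and the level in heart was higher by 2.80 ± 0.62 (SE, limma adjusted p = 0.00612). Aurka was at 5.14, 4.26 and 4.97 in WT heart and 6.91, 7.91 and 6.14 in WT gastrocnemius. Here too the ranges did not overlap, with a log2 difference of -2.19 ± 0.52 (SE, limma adjusted p = 0.0103). The count was 1 without WT replicate 2 of either tissue. Without the 2 arrays Mcm2 was also lower, at -0.97 (adjusted p = 0.00808), and Pcna higher, at 0.89 (adjusted p = 0.0129), 4 of 43 against 26.1%.

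**Figure D4:**
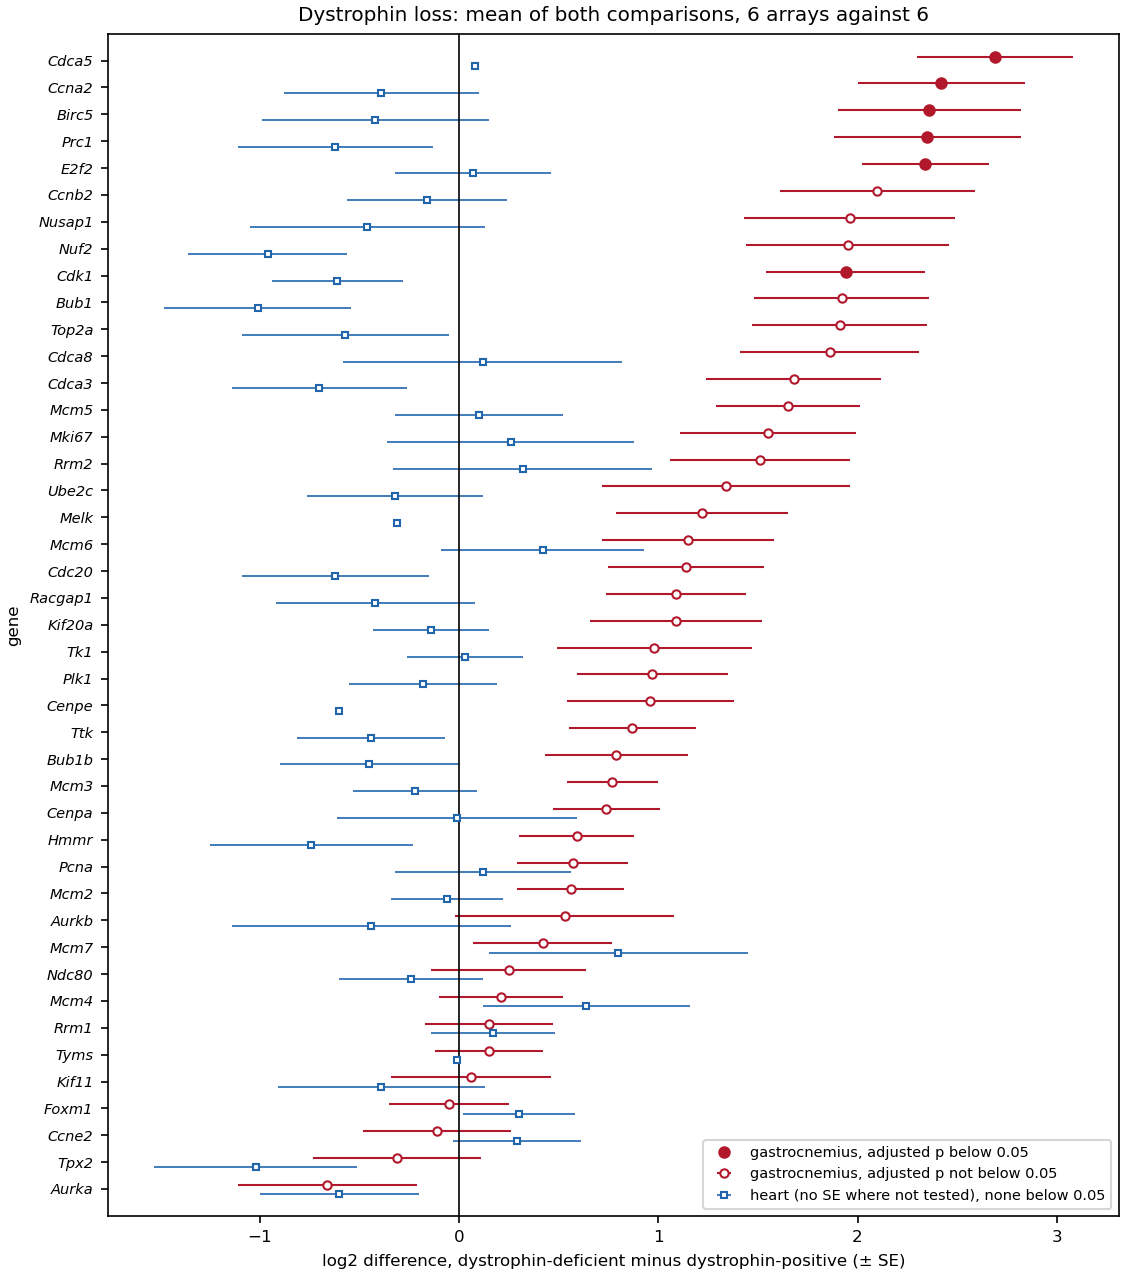
Log2 difference between dystrophin-deficient and dystrophin-positive arrays for each of the 43 genes, as the mean of both comparisons with 6 arrays against 6; bars are the SE, red circles gastrocnemius and blue squares heart. The 6 filled circles are Cdca5, Ccna2, Birc5, Prc1, E2f2 and Cdk1, which passed an adjusted p below 0.05; no heart value did, and most squares lie at or below 0.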

How the data were processed

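RNA from gastrocnemius and heart of 12 mice was hybridised to 24 Affymetrix arrays after amplification from 25 ng. The authors deposited linear intensities, a brightness per probe set; per the submitters' processing notes GCOS and RMA were used, with no versions, and which step made these values is not given in the sources used here. The number of arrays limits the precision.

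Values were taken as log2 without an offset or further scaling. Of 45101 probe sets, 64 controls were left out; of the rest 34945 named 1 gene, 932 several and 9160 none, by an annotation that can be old. A probe set was tested if at least 3 of the 12 arrays of the tissue exceeded the 40th percentile of that tissue's log2 values (4.66 in gastrocnemius, 4.78 in heart). This kept 29518 probe sets in gastrocnemius, with all 43 measured genes, and 29421 in heart, with 39; Cdca5, Cenpe, Melk and Tyms did not pass there. In 12 genes in gastrocnemius and 16 in heart at least 1 group mean was below this level. limma 3.58.1 in R 4.3.3 (lmFit, eBayes, two-sided) fitted the 4 genotype means of each tissue, and p-values were Benjamini-Hochberg adjusted over all probe sets tested. Comparisons between tissues used all 24 arrays and 1 probe set per gene, the brightest over both tissues, with the animal as a random block (consensus correlation 0.214, or 0.509 without 2 heart arrays). The scripts were tested on simulated data.

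The members and lists were chosen with earlier results of these data known. Every array is given for Mki67, Cdk1, Top2a and Pcna, for genes past the threshold within a tissue, and for the 10 largest pooled differences in gastrocnemius and 4 in heart; other genes are given by group, with the largest and smallest. Genes named beside small counts were picked after their values were seen. Same-numbered arrays of different genotypes did not all deviate together (correlations of deviations -0.577 to 0.615 in gastrocnemius and -0.418 to 0.645 in heart), so the replicate numbers were not taken to pair the arrays. The labels do not say that samples of a group were bred separately, so p-values measure the spread between these animals. Alternatives were scaling, offset, filter, variance model, array weights, the mean over probe sets, a replicate block, and leaving out arrays.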

Additional observations from a re-analysis of the deposited data

Results flagged for a closer look

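For 7 genes the pooled difference across dystrophin loss was lower in heart than in gastrocnemius by the test of that difference over 24 arrays. The log2 values of heart minus gastrocnemius were -2.97 for Prc1, -2.93 for Bub1, -2.91 for Nuf2, -2.81 for Ccna2, -2.60 for Cdca5, -2.55 for Cdk1 and -2.27 for E2f2. In heart alone their pooled differences lay between -1.01 and 0.08, and in gastrocnemius between 1.92 and 2.69. Cdca5 was too dim in heart to be tested there, and Bub1, Cdca5 and Nuf2 add no support to this count, as given above.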

How the results depend on the processing

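In Cmah KO mdx against Cmah KO gastrocnemius, 2 genes passed; 1 passed with a stricter filter, 17 with array weights, none with only the compared groups in the fit (0), and 0 to 3 without 1 array. In the pooled gastrocnemius comparison 6 passed; 3 without a filter, 18 with array weights, and 2 to 10 without 1 array, the 10 without Cmah KO mdx replicate 1. E2f2 passed there in every alternative that could be run. Cdca5, which the filter kept only through its high group, passed with no filter (adjusted p = 0.0154) and was too dim for the stricter one. An estimate of array weights stopped before it converged. With the replicate block 5 passed, Cdk1 not (adjusted p = 0.0827), but the numbers do not pair the arrays. For the difference between tissues 7 passed; 1 without a block, 2 with the replicate block in place of the animal, 3 with quantile normalization, 2 without a filter, 16 without the 2 heart arrays, and 1 to 10 without 1 array. For WT heart against WT gastrocnemius 2 passed; 4 without the 2 heart arrays, and 1 to 2 without 1 array. The counts of the other comparisons were 0 in every alternative, and no value changed sign where it had passed. Leaving out the 2 heart arrays was chosen after the values were seen. Where an alternative changed a count, the cause was not tested. With 3 arrays a group, a gene that misses the threshold is not shown to be equal.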
